A study of Mus musculus with 12 samples.

Results

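The family of miR-34 and miR-449 is described here across colon and blood of mice with and without experimental colitis. The members were the arms of the Mir34a, Mir34b, Mir34c and Mir449a hairpins, taken by name from the count table, and the family was picked with earlier results of these data known. They are listed there as mmu-mir-34a-5p, mmu-mir-34a-3p, mmu-mir-34b-5p, mmu-mir-34b-3p, mmu-mir-34c-5p, mmu-mir-34c-3p and mmu-mir-449a-5p, and are written here without the species prefix. All 7 names were found among the 1978 rows of the table. All 7 had at least 1 read in colon, where 1300 rows had reads, and 5 had at least 1 read in blood, where 1121 rows had reads. Small RNA was sequenced from both tissues of the same 6 wild-type C57BL/6 male mice, giving 12 libraries. The 3 DSS mice (mice 1, 7 and 9) drank water with 1.5% (wt/vol) dextran sulfate sodium (DSS), which damages the lining of the colon, for 7 days, followed by regular water until day 8. The 3 control mice (mice 2, 4 and 8) drank water without DSS over the same time. The mice were 8 weeks old when obtained, and those sequenced had been picked from a larger cohort by their disease activity index, a clinical score.

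The sample labels conflict with this grouping. Their disease state field gives colitis for mice 1, 2 and 4 and no disease for mice 7, 8 and 9, and it was run as an alternative to the grouping of the study's figures. The tissue was taken from the tissue field of the labels, since the source field names the opposite one. The erythroid miRNAs miR-451a, miR-144 and miR-486a held 37.9% to 42.4% of the counts of the libraries taken as blood and 0.155% to 0.278% of those taken as colon. Smooth muscle and stromal miRNAs held 26.4% to 36.6% in colon and at most 0.0477% in blood. Library totals, summed over all rows, ran from 15060553 to 20106226 counts in colon and from 21127134 to 32944792 in blood. A read can be counted for several entries of like sequence, so these totals can exceed the reads sequenced and do not measure depth. Reads and shares of reads given below are such counts. Blood and colon RNA were extracted with different kits, so tissue and extraction cannot be told apart.

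miRNAs are short RNAs that are cut from a hairpin, loaded into an Argonaute protein and guided to target mRNAs mainly by the seed, a stretch near their 5′ end. miR-34a and the miR-34b/c pair are known as direct transcriptional targets of the tumour suppressor p53 and as repressors of mRNAs for cell cycle and survival proteins, among them Cdk6 and Bcl2. miR-449a shares their seed and is best known from multiciliated epithelia, where miR-34b/c is abundant as well, a cell type that the colon is not known to hold.

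The mature sequences are shown because the shared seed is what makes the hairpins a family, and because the likeness of some members bears on how reads were assigned. They are taken from the deposited tables, 5′ to 3′, with bases 2 to 8 (the seed) in capitals. Of the 7 members, 6 were identical to the RefSeq entry of the same name. The 5p arms carry the same seed, GGCAGUG, which 5 of the 1405 rows with a sequence had, the fifth being miR-449c-5p.
miR-34a-5p: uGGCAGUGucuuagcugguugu
miR-34b-5p: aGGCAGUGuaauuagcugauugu
miR-34c-5p: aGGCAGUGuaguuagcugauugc
miR-449a-5p: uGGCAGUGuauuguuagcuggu
miR-449c-5p: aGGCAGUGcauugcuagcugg
The 3p arms have 2 seeds between them, with 1 shared by miR-34b-3p and miR-34c-3p.
miR-34a-3p: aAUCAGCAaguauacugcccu
miR-34b-3p: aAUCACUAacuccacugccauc
miR-34c-3p: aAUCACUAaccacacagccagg
Counted from 1 at the 5′ end, with the base of miR-34b-5p first, miR-34b-5p and miR-34c-5p differ only by A11G and U23C, so reads that are short or carry a mismatch could be counted for either. Every other member was at least 4 edits from its nearest relative in the table.

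The hairpins lie at 3 places in the mouse genome (GRCm38, GENCODE annotation). Mir34a is at chr4:150068454-150068555 (plus strand), inside an exon of Gm37795, an unclassified transcript of that strand. Mir34b (chr9:51103562-51103645) and Mir34c (chr9:51103034-51103110) are 451 bp apart on the minus strand, opposite an intron of Btg4. Mir449a (chr13:113037534-113037624) is in an intron of Cdc20b on the same strand, with Mir449b 35 bp away and Mir449c at chr13:113035983-113036091.

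In colon, miR-34c-5p was the leading member. It had 295, 300 and 546 reads in DSS mice 1, 7 and 9, and 247, 212 and 223 in control mice 2, 4 and 8. With a mean of 17.1 CPM (reads scaled to a common library size with TMM factors, which even out differences in library makeup), it ranked 233 of the 1300 rows with reads in colon. miR-34a-5p, from the hairpin on its own chromosome, had 57, 70 and 76 reads in the DSS mice and 67, 48 and 36 in the controls, rank 354. miR-34b-5p, from the same transcription unit as miR-34c, had 10, 29 and 83 reads in the DSS mice and 19, 23 and 31 in the controls, rank 418. The 6 colon libraries kept the order of miR-34c-5p over miR-34a-5p in every mouse, while miR-34a-5p and miR-34b-5p changed places in mouse 9.

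The remaining members were at a few reads. miR-34b-3p had 6, 7 and 11 reads in the colon of DSS mice and 4, 6 and 2 in controls. miR-449a-5p had 2, 10 and 8 against 2, 6 and 0, and miR-34c-3p had 1, 4 and 3 against 3, 1 and 1. miR-34a-3p was seen only in DSS mice, with 0, 1 and 2 reads against 0 in each control, at or under the floor of 3 counts below which no fold is given.

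**Figure D1:**
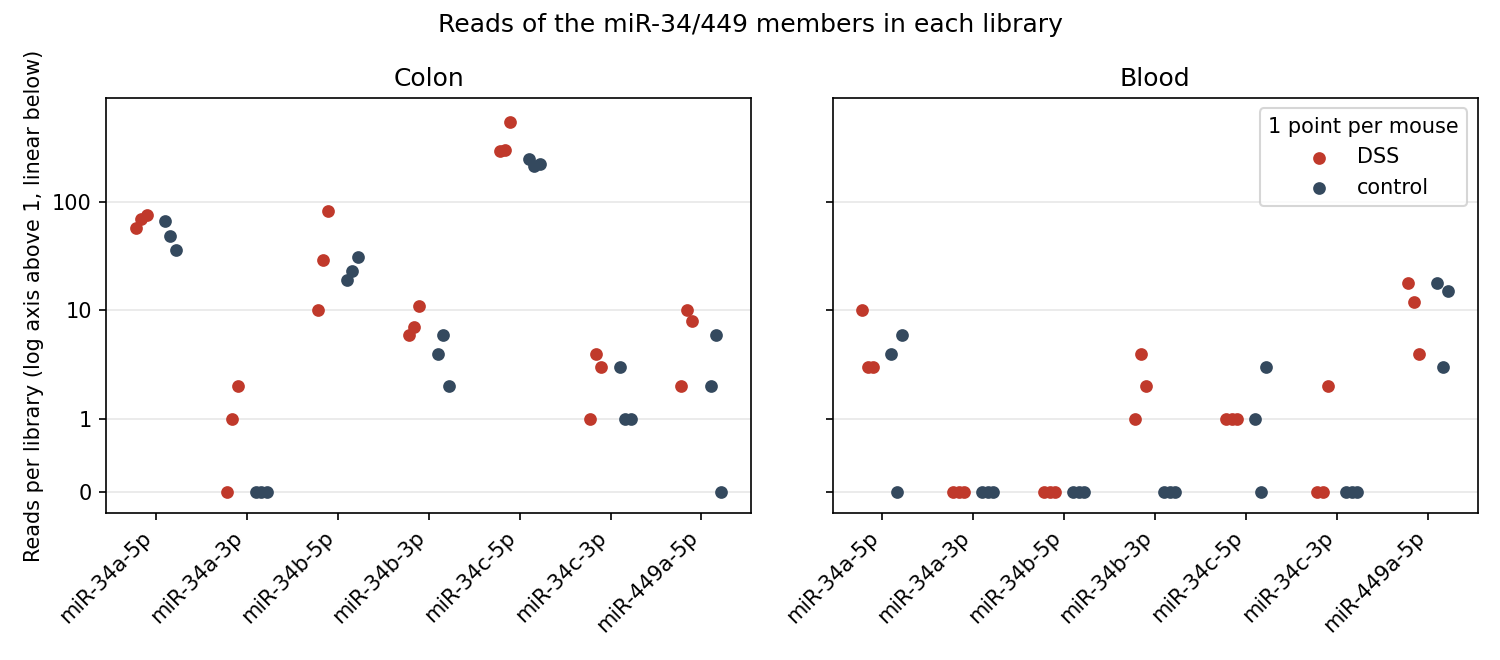
Reads of each member in each library, colon on the left and blood on the right, with reads on the y axis (log scale above 1) and 1 point per mouse, red for DSS and dark for control. In colon miR-34c-5p sits highest, at 212 to 546 reads, and in blood miR-449a-5p does, at 3 to 18 reads.

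Whether colitis moved the family in colon was tested with edgeR's quasi-likelihood test, and a miRNA was called where its Benjamini-Hochberg adjusted p was 0.05 or less and it differed by more than 1.5-fold. Of the 7 members, miR-34a-5p, miR-34b-5p and miR-34c-5p had enough reads to be tested. None was called, where 10.1% of the 542 tested miRNAs were (55, with 32 higher and 23 lower). That share was unsteady, with 16 called with RLE factors, 8 with upper-quartile factors and 0 without control mouse 2, control mouse 4, DSS mouse 7 or control mouse 8 (125 to 158 at an unadjusted p under 0.05). With total counts the calls split into 38 higher and 9 lower.

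miR-34c-5p was at 21.1, 16.9 and 21.1 CPM in DSS mice 1, 7 and 9 and at 16.5, 12.8 and 14.0 CPM in control mice 2, 4 and 8. Each DSS mouse was above each control, which held for 22.5% of the tested miRNAs. Its log2 fold change was 0.45 (SE 0.18, 95% interval 0.03 to 0.87, edgeR unadjusted p = 0.0377, adjusted p = 0.136), with group means of 19.7 ± 2.44 and 14.4 ± 1.87 CPM (SD, n = 3 each). Scaling by total counts moved the median log2 fold change of all tested miRNAs from 0.04 to 0.26, and miR-34c-5p stood 0.41 above the median under both.

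miR-34a-5p, the member most studied as a p53 target, was at 4.08, 3.95 and 2.94 CPM in DSS mice and 4.47, 2.90 and 2.26 CPM in controls, and the groups overlapped. Its log2 fold change was 0.19 (SE 0.30, 95% interval -0.52 to 0.89, edgeR adjusted p = 0.690). It was -0.037 without control mouse 8 and 0.47 without control mouse 2. miR-34b-5p was at 0.717, 1.64 and 3.21 CPM in DSS mice, a wider spread than the 1.27, 1.39 and 1.94 CPM of the controls. Its log2 fold change was 0.31 (SE 0.51, 95% interval -0.89 to 1.52, edgeR adjusted p = 0.690), and without DSS mouse 9 it was -0.36. The interval of miR-34b-5p leaves room for a 1.5-fold difference in either direction. Those of miR-34a-5p and miR-34c-5p leave room for a 1.5-fold rise.

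Under the grouping of the disease state field, miR-34c-5p had a log2 fold change of -0.047 and miR-34b-5p one of -1.01 in colon, neither called by edgeR's test (adjusted p = 0.991 for both), and 0 of the 542 tested miRNAs were called (20 at an unadjusted p under 0.05, beside 170 under the grouping used).

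**Figure D2:**
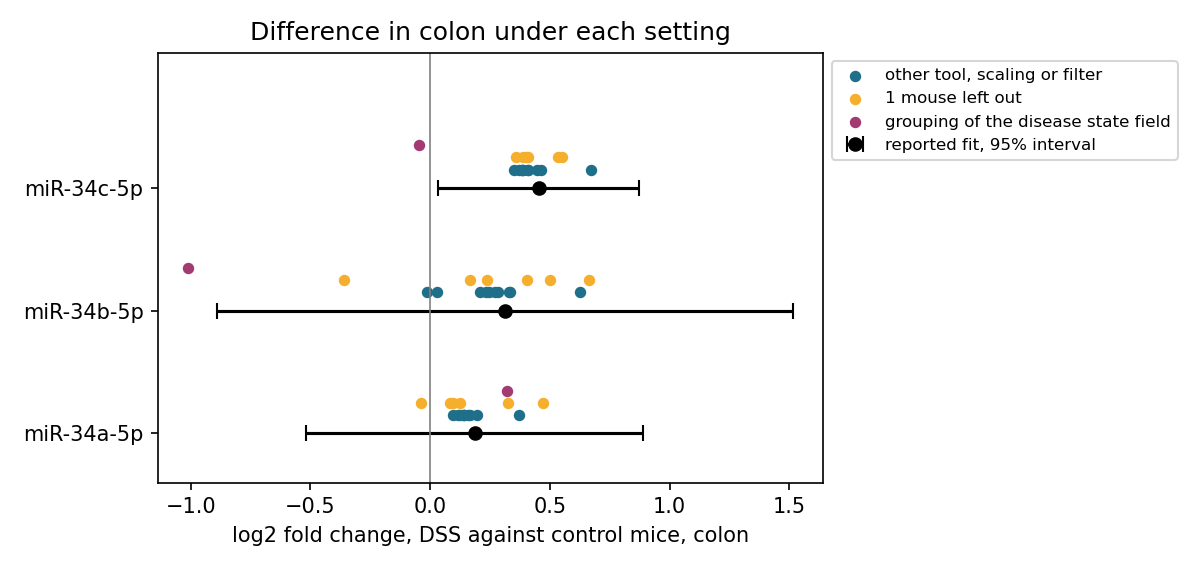
The log2 fold change of 3 members in colon, DSS against control mice (x axis), with the reported fit and its 95% interval in black and the alternatives as coloured points above it. The points of miR-34c-5p stay between 0.35 and 0.67 except for the grouping of the disease state field at -0.047.

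In the same colon libraries, markers of cell types differed between the groups. The 9 epithelial miRNAs (such as miR-192-5p, miR-200b-3p and miR-375-3p) held 7.15% to 12.6% of reads in DSS mice and 15.9% to 19.1% in controls, with 4 called lower and none higher, where 4.24% of all tested miRNAs were called lower and 5.9% higher. Of these 4, miR-192-5p, miR-194-5p and miR-141-3p were followed under each setting. They lost their calls with RLE or upper-quartile factors and without DSS mouse 9. Without control mouse 2, control mouse 4, DSS mouse 7 or control mouse 8, 0 miRNAs were called in colon. That takes in the fourth, miR-429-3p, and the myeloid and lymphocyte calls given next. The 4 myeloid arms of miR-223 and miR-142a held 0.0342% to 0.144% against 0.0241% to 0.0355%, with 2 called higher. The endothelial miR-126a-3p and miR-126a-5p held 0.680% to 0.882% against 0.454% to 0.544%, without overlap. Among all tested miRNAs, DSS mice were above controls without overlap for 22.5%. The endothelial log2 fold changes of 0.41 and 0.46 were not called (edgeR adjusted p = 0.0645 and 0.0629). Of the 3 lymphocyte miRNAs miR-155-5p was called higher (1.29, edgeR adjusted p = 0.0491), and the list held 0.150% to 0.213% against 0.156% to 0.171%. None of the 6 smooth muscle and stromal or of the 3 erythroid miRNAs tested in colon was called. The stromal miR-199a-3p (log2 fold change 0.53, edgeR adjusted p = 0.0431) missed only the 1.5-fold limit. In bulk tissue, fewer cells of a type and less RNA per cell cannot be told apart, and the part of cell makeup in the values of the family was not tested.

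Within colon, miR-34c-5p held 73.3% to 80.8% of the reads with the shared seed in each mouse, while miR-34a-5p ranged from 10.6% (DSS mouse 9) to 20.0% (control mouse 2) and miR-34b-5p from 2.74% (DSS mouse 1) to 11.6% (DSS mouse 9). Of 2402 such reads pooled over the 6 libraries, miR-34c-5p held 75.9% (exact binomial 95% interval 74.1% to 77.6%), miR-34a-5p 14.7%, miR-34b-5p 8.12%, miR-449a-5p 1.17% and miR-449c-5p 0.0833%. These intervals cover counting error only, since no molecular identifiers are described. The seed reads together came to 25.6 ± 2.33 CPM in DSS mice (23.1 to 27.6) and 19.3 ± 2.63 CPM in controls (17.5 to 22.3; SD, n = 3 each), which is given without a test because miR-34c-5p makes up most of it.

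The balance within the Mir34b/Mir34c pair was less even. miR-34b-5p reads came to 3.39%, 9.67% and 15.2% of miR-34c-5p reads in DSS mice 1, 7 and 9 and to 7.69%, 10.8% and 13.9% in control mice 2, 4 and 8. As a share of both, the lowest value was 3.28% in DSS mouse 1 (exact 95% interval 1.58% to 5.95%) and the highest 13.2% in DSS mouse 9 (10.6% to 16.1%). The extremes both fell among DSS mice, and the controls lay between them. As given with the sequences, reads of these arms could be counted for either. The exact intervals do not cover this, and its part in the shares was not tested. Over the 6 colon libraries, the Pearson correlation of log2(CPM + 1) was 0.06 between miR-34b-5p and miR-34c-5p, 0.45 between miR-34a-5p and miR-34c-5p and -0.57 between miR-34a-5p and miR-34b-5p, as a description of libraries that share treatment groups and depth.

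In blood, the family was near the limit of detection. miR-449a-5p led, with 18, 12 and 4 reads in DSS mice 1, 7 and 9 and 18, 3 and 15 in control mice 2, 4 and 8, rank 481 of the 1121 rows with reads. miR-34a-5p had 10, 3 and 3 reads in DSS mice and 4, 0 and 6 in controls. miR-34c-5p, the most abundant member in colon, had 1 read in each DSS mouse and 1, 0 and 3 reads in the controls. miR-34c-3p had 2 reads, both in DSS mouse 9. miR-34b-5p and miR-34a-3p had 0 reads in all 6 libraries, which allows up to 0.0248 CPM over the pooled blood reads on the scale shared by the 12 libraries.

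miR-449a-5p was the member tested in blood. It was at 0.453, 0.387 and 0.185 CPM in DSS mice and at 0.809, 0.173 and 0.509 CPM in controls, and the groups overlapped. Its log2 fold change was -0.52 (SE 0.57, 95% interval -1.81 to 0.78, edgeR adjusted p = 0.783), and 0.012 without control mouse 2. Across blood 0% of the 484 tested miRNAs were called, with 56 at an unadjusted p under 0.05, while DESeq2 called 10 (3.39% of those it tested).

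miR-34b-3p, the arm opposite miR-34b-5p in the hairpin, had too few reads to pass the filter in either tissue. In blood it had 1, 4 and 2 reads in DSS mice and 0 in each control, so that all 7 reads came from DSS mice. In colon it was at 0.430, 0.395 and 0.426 CPM in DSS mice and 0.267, 0.362 and 0.125 CPM in controls. The groups did not overlap in colon CPM, although DSS mouse 1 and control mouse 4 each had 6 reads. Among tested miRNAs, DSS mice were above controls without overlap for 22.5% in colon and 7.44% in blood. With no filter on low counts, edgeR's test did not call it in colon (log2 fold change 0.71, SE 0.62, adjusted p = 0.640) or in blood (unadjusted p = 0.0345, adjusted p = 0.468), where no fold is given because the controls were at 0.

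Between the tissues the differences were far larger. All 4 members tested over the 12 libraries were called by edgeR's test, where 88.7% of the 680 tested miRNAs were called (37.6% higher and 51% lower in blood), so that a call by itself set no member apart. None of the 4 passed the filter in the separate fits of both tissues. miR-34a-5p, miR-34b-5p and miR-34c-5p passed it in colon and miR-449a-5p in blood, so each was kept through the tissue where it was higher. The number of calls, and the p-values of these members below, are no support for a difference. The median log2 fold change of blood against colon over all tested miRNAs was -0.86 with TMM scaling and -1.59 with total counts.

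miR-34c-5p had 1823 reads in the 6 colon libraries and 7 in the 6 blood libraries. On a scale shared by the 12 libraries it was at 10.04 to 15.98 CPM in colon and 0 to 0.144 CPM in blood, a log2 fold change of -7.69 (SE 0.36, edgeR adjusted p = 2.43e-11), which is 6.84 below the median. The pooled level in colon was 232 times that in blood, and 397 times with total counts. The log2 fold change was -6.57 with upper-quartile factors and -8.44 without mouse 8. miR-34a-5p, with 354 reads against 26, had a log2 fold change of -3.65 (SE 0.40, edgeR adjusted p = 4.30e-07), 2.79 below the median, and one of -2.49 with upper-quartile factors and -4.36 with total counts. Both were lower in blood in 6 of 6 mice.

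miR-34b-5p had 195 reads in colon and 0 in blood, so its level was at least 57.8-fold higher in colon, against a floor of 3 counts over the pooled blood libraries. With total counts the bound was 98.97-fold. miR-34b-3p (36 against 7 reads) and miR-34c-3p (13 against 2) did not pass the filter on low counts. The pooled level of miR-34b-3p was 4.57 times as high in colon with TMM scaling and 7.83 times with total counts. That ratio rests on 7 blood reads, 4 of them in DSS mouse 7. No ratio is given for miR-34c-3p, whose 2 blood reads both came from DSS mouse 9. With no filter, edgeR's test called both lower in blood (adjusted p = 0.0001 for miR-34b-3p and 0.0188 for miR-34c-3p), in a fit that called 826 of 1405 miRNAs, 483 of them lower. Its fitted folds are not given, since both arms had 0 reads in the blood of all 3 controls. DESeq2, which called 767 miRNAs, called miR-34b-3p (adjusted p = 0.00119) and not miR-34c-3p (adjusted p = 0.103).

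miR-449a-5p went the other way, with 28 reads in colon and 70 in blood. It was at 0 to 0.439 CPM in colon and 0.180 to 0.885 CPM in blood, and 4 of 6 mice had more in blood, mice 4 and 9 being the exceptions, while with total counts mouse 7 had more in colon as well. Its log2 fold change was 1.57 (SE 0.55, 95% interval 0.39 to 2.74, edgeR adjusted p = 0.0143). It was kept for testing through blood, where it was higher, so this p and interval are no support for a difference. The call was lost with scaling by total counts (log2 fold change 0.83, adjusted p = 0.179) and without mouse 1 (1.23, adjusted p = 0.0614), mouse 2 (1.29, adjusted p = 0.0794) or mouse 8 (1.08, adjusted p = 0.0951), while it was 2.39 without mouse 4 and 2.72 with upper-quartile factors. It stood 2.43 above the median of all tested miRNAs with TMM scaling and 2.42 with total counts.

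The seed reads were made up differently in the tissues. Of 110 pooled seed reads in blood, miR-449a-5p held 63.6% (exact 95% interval 53.9% to 72.6%), miR-34a-5p 23.6%, miR-34c-5p and miR-449c-5p 6.36% each, and miR-34b-5p 0% (up to 3.30%). The interval of miR-449a-5p in colon was 0.776% to 1.68%.

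**Figure D3:**
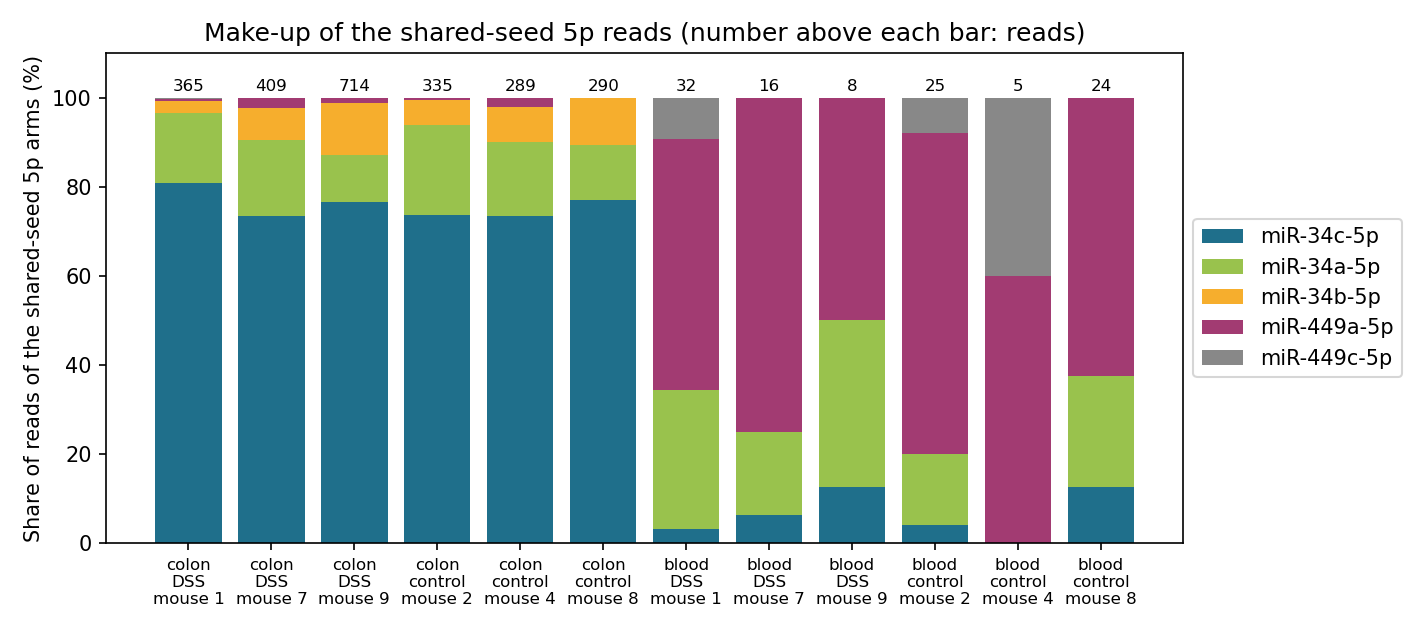
Share of each 5p arm (y axis, percent) among the reads with the shared seed in each of the 12 libraries, with the number of reads above each bar. miR-34c-5p makes up most of the 289 to 714 reads in each colon library, and miR-449a-5p has the largest share in each blood library, on 5 to 32 reads.

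The other arms of the Mir449 cluster, listed beside the members, had few reads or none. miR-449c-5p had 3 reads in blood of mouse 1, 2 each in blood of mice 2 and 4, and 1 each in colon of mice 1 and 9. miR-449a-3p had 1 read in colon of mouse 8 and 2 in colon of mouse 9. miR-449b and miR-449c-3p had 0 reads in all 12 libraries.

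Whether the effect of DSS differed between the tissues was tested as an interaction (the DSS difference in blood minus that in colon) over the 12 libraries. The estimates were 0.39 for miR-34a-5p (SE 0.83, edgeR adjusted p = 0.890), -0.88 for miR-34c-5p (SE 0.89, adjusted p = 0.716) and -1.17 for miR-449a-5p (SE 1.11, adjusted p = 0.655), the last ranging from -2.85 without mouse 4 to -0.61 without mouse 8. None was called, where 0% of the 680 tested miRNAs were called (94 at an unadjusted p under 0.05, 37 or 8.79% by DESeq2, 1 with mouse as a replicate block). No estimate is given for miR-34b-5p, since it had no reads in blood, and it was not called. The 95% interval for miR-34c-5p ran from -2.79 to 1.02. The estimate of miR-34a-5p turned negative in 5 alternatives, such as -0.22 without mouse 1. That of miR-34c-5p was 0.24 without mouse 8, and that of miR-449a-5p 0.70 with the grouping of the disease state field.

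Each hairpin gives a 5p and a 3p arm, of which usually one is kept. In colon the 5p arm held 99.2% of the reads of miR-34a (354 of 357), 99.3% of miR-34c (1823 of 1836) and 90.3% of miR-449a (28 of 31). For miR-34b it held 84.4% (195 of 231), from 62.5% in DSS mouse 1 to 93.9% in control mouse 8, while each mouse was at 97.4% or more for miR-34a and 98.7% or more for miR-34c. In blood miR-34b had 0 of 7 reads on the 5p arm, an exact interval that reaches 41.0%, whereas miR-34a had 26 of 26 and miR-449a 70 of 70. miR-34c had 7 of 9 there (77.8%, exact interval 40.0% to 97.2%), an interval that overlaps that of miR-34b, and 2 of its 3 reads in DSS mouse 9 were on the 3p arm.

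The arm ratio, log2((5p + 0.5)/(3p + 0.5)), was compared between DSS and control mice in colon for the 3 hairpins with at least 10 reads in every library. The difference was -0.84 for miR-34a, -0.70 for miR-34b and 0.15 for miR-34c, with p = 0.3, 0.5 and 0.7 by two-sided exact permutation test (adjusted p = 0.7 for each over the 3). For miR-34a the 3p arm had 0 reads in the 3 controls and in DSS mouse 1, so the pseudocount sets its ratio there, and the difference was 0.17 with a pseudocount of 5 and 1.28 with the grouping of the disease state field. With 3 mice against 3 no p under 0.1 can be reached. In blood no hairpin had enough reads.

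The miRNAs whose levels followed the members most closely over the 6 colon libraries were named by the highest Pearson r of log2(CPM + 1). For miR-34c-5p these were let-7i-5p (r = 0.98), miR-431-5p (0.96) and miR-434-5p (0.96), the last 2 from the imprinted Dlk1-Dio3 region. For miR-34a-5p they were miR-6988-3p (0.96), miR-5126 (0.85) and miR-690 (0.84). With 6 libraries in 2 groups and 542 candidates, high values are found easily, and these are descriptions only.

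Other miRNAs linked to p53, by transcription or by processing, were compared as well. Of a list of 12, none was called higher in colon and 3 were called lower in DSS mice by edgeR's test, against 5.9% called higher and 4.24% called lower of all tested. These were miR-192-5p (log2 fold change -1.29, SE 0.31, adjusted p = 0.0491) and miR-194-5p (-1.08, SE 0.27, adjusted p = 0.0491), which are abundant in enterocytes, and miR-141-3p (-1.17, SE 0.27, adjusted p = 0.0471), an epithelial miRNA of the miR-200 family. All 3 stand in the list of epithelial markers too. The median log2 fold change of the list was -0.58, beside 0.04 over all tested miRNAs.

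The other 9 were not called, among them miR-200c-3p (-0.84, adjusted p = 0.0739), miR-107-3p (-0.42, adjusted p = 0.253), miR-16-5p (-0.15, adjusted p = 0.456) and miR-22-3p (0.10, adjusted p = 0.634) by edgeR's test. The 3 calls rested on the scaling and on single libraries: none was made with RLE or upper-quartile factors, or without control mouse 2, control mouse 4, DSS mouse 7 or control mouse 8, and 5 were made without DSS mouse 1. Without DSS mouse 9 the list had 0 called lower and 1 called higher. In blood 0 of the 12 were called by edgeR after the filter. With no filter 1 was called lower, where 18 of all 1121 tested miRNAs were called lower. DESeq2 called 2 of the 10 it tested lower, where 7 of all 295 it tested were called lower (3.39% in either direction). The list had a median of -0.27 in blood beside -0.05 over all tested. Between tissues, 4 of the 12 (miR-107-3p, miR-15a-5p, miR-16-5p and miR-22-3p) were called higher in blood and 8 lower, where 37.6% of all tested were called higher and 51% lower.

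**Figure D4:**
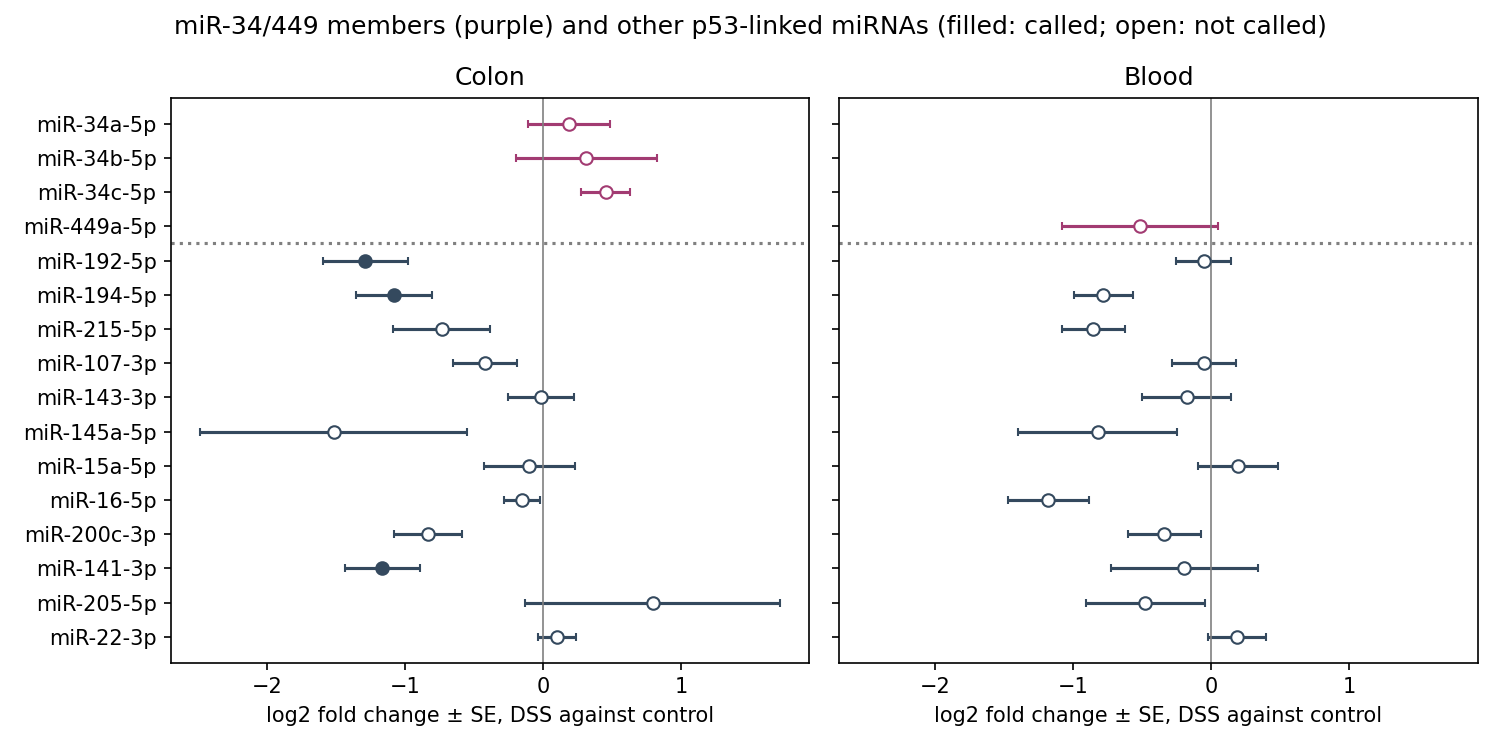
Log2 fold change of DSS against control mice with its SE (x axis) for the tested members (purple) and 12 other p53-linked miRNAs (dark) in colon and blood, filled where called. In colon the 3 members lie at 0.19, 0.31 and 0.45 and the 3 filled points at -1.29, -1.17 and -1.08.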

How the data were processed

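Small RNA from colon and blood of 6 mice was sequenced. The authors trimmed reads with Flexbar, collapsed them with fastx-toolkit and counted them with the quantifier of miRDeep2 (2.0.1.0) against the mature mouse sequences of miRBase 22. The deposited count table holds unnormalized counts per mature miRNA. The deposited normalized signal of each tissue is the count divided by 1 constant per library, from DESeq2 (1.22.2), with the tissues normalized apart, so tissues were compared from counts only. A read can be counted for several entries of like sequence. Library totals are the column sums of the count table.

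Counts were tested in R (4.3.3) with edgeR (4.0.16): filterByExpr, TMM factors, glmQLFit and glmQLFTest, adjusted by Benjamini-Hochberg over all tested miRNAs. DSS and control mice were compared within each tissue, and both tissues in 1 fit over 12 libraries. The SE was taken as the size of the estimate over the root of its F statistic. The mouse number is the same animal in both tissues. Deviations from the group means correlated between the tissues of a mouse at -0.27 to 0.07 (680 miRNAs), and the fit with mouse as a block was an alternative. Other alternatives were DESeq2 (1.42.0), other scalings and filters, identical sequences counted once, limma (3.58.1) on log2 of the normalized signal with a pseudocount of 1 or 8, each mouse left out, and the disease state grouping. Arm ratios used exact permutation tests (scipy 1.17.1). Tests were tried on simulated counts first.

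The miRNAs named are the 7 members, rows of the same seed, the other miR-449 rows, 12 p53-linked miRNAs listed from general knowledge, and in colon the 3 miRNAs most correlated with miR-34a-5p and miR-34c-5p. In blood the last were not taken, since both had at most 10 reads. The members and lists were chosen with earlier results of these data known. Positions are from GENCODE M21 on GRCm38. Python (3.11.15) made tables and figures.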

Additional observations from a re-analysis of the deposited data

How the results depend on the processing

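The number of miRNAs called over the whole table moved with the settings. In colon it was 55, and 16 with RLE factors, 8 with upper-quartile factors, 0 with all 12 libraries in 1 fit, 0 with the grouping of the disease state field, and 0 to 44 with 1 mouse left out. In blood it was 0, and 10 with DESeq2, 25 with no filter, 1 with all 12 libraries in 1 fit, and 0 to 1 with 1 mouse left out. Between tissues it was 603, and 244 with at least 10 counts in every library, where fewer miRNAs were tested, and 608 to 620 with 1 mouse left out. For the interaction it was 0, and 37 with DESeq2, 8 with RLE factors, 27 with no filter, 3 with at least 10 counts in every library, 1 with mouse as a replicate block, and 0 to 2 with 1 mouse left out. The cause of these shifts was otherwise not tested.

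For the members, no alternative made a call of DSS against control in either tissue, and miR-34a-5p, miR-34b-5p and miR-34c-5p were called lower in blood under the 13 alternatives that tested them. Filters kept them through colon, where they were higher, so this count is no support for the difference. Requiring 10 or more counts per library left out all 4 members between tissues. miR-449a-5p lost its call between tissues in 4 alternatives, as given with its result, and kept it with the mouse as a replicate block (log2 fold change 1.51, edgeR adjusted p = 0.0406), which changed no other call of a member. Some estimates that were not called changed sign, and the cause was not tested. In colon, miR-34a-5p was -0.037 (without control mouse 8) to 0.47 with 1 mouse left out. miR-34b-5p was -0.36 (without DSS mouse 9) to 0.66 with 1 mouse left out, -0.012 with limma at a pseudocount of 1 and -1.01 with the grouping of the disease state field, under which miR-34c-5p was -0.047. In blood, miR-449a-5p was -0.82 to 0.012 (without control mouse 2) with 1 mouse left out and 0.40 with that grouping. For the interaction, miR-34a-5p was -0.0058 with DESeq2, -0.033 with RLE factors, -0.22 (without mouse 1) to 1.13 with 1 mouse left out, also below 0 without mouse 4, and -0.19 with that grouping, miR-34c-5p was -1.27 to 0.24 (without mouse 8) with 1 mouse left out, and miR-449a-5p was -2.85 to -0.61 with 1 mouse left out and 0.70 with that grouping. The arm ratio difference of miR-34a was 0.17 with a pseudocount of 5 and 1.28 with that grouping, and -1.38 to -0.42 with 1 mouse left out. That of miR-34b was -1.21 to -0.12 and that of miR-34c -0.19 to 0.62 with 1 mouse left out (-0.16 without DSS mouse 1). The arm ratio between tissues was not run, since no hairpin had enough reads in blood.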
